A study of Homo sapiens with 12 samples.

Results

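RNA of 6 SOX transcription factor genes, SOX4, SOX5, SOX6, SOX9, SOX12 and SOX13, was measured in K562 cells, a human erythroleukaemia line, with the heme transporter HRG1 (gene SLC48A1) intact (WT) or knocked out (KO). The 6 genes were chosen by symbol from the 28278 genes of the count table, and the choice used measured values, since SOX5 had stood out among the genes that fell under butyrate in WT. Cells were left untreated or given sodium butyrate, a histone deacetylase inhibitor, at 0.75 mM in 2 doses, the first 24 h after plating and the second 48 h later, and were collected 6 h after the second, at day 8 of differentiation by the series' design. The 4 groups were thus untreated WT, butyrate-treated WT, untreated KO and butyrate-treated KO, with 3 libraries each. K562 cells lack normal blood differentiation and carry leukaemic rearrangements in every group, and neither the making of the knockout nor the number of KO clones is stated. The labels do not say whether replicates were separate cultures, so p-values measure only the spread between these samples, which may be technical.

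SOX proteins bind DNA through a high mobility group (HMG) box, which recognises a short motif close to AACAAT in the minor groove and bends the helix. They fall into groups by the sequence of that box. SOX4 and SOX12 belong to the SOXC group, which carries an activation domain and acts in progenitor cells. SOX5, SOX6 and SOX13 belong to the SOXD group, whose members have no activation domain of their own and pair through coiled coils, and SOX9, of the SOXE group, drives cartilage and testis development. In the erythroid lineage SOX6 is known for silencing the embryonic globin gene HBE1, and for doing so together with BCL11A at the fetal globin genes.

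The first 60 coding bases of a conserved stretch of the HMG box are shown to let the groups be compared by eye. They were located by translating the longest matching coding transcript of each gene in GENCODE v29 (GRCh38), and capitals mark the 31 positions that are identical in all 6 genes.
SOX4: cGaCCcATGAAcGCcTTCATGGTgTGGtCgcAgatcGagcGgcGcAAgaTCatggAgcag
SOX12: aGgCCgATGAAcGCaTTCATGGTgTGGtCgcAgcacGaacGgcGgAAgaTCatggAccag
SOX5: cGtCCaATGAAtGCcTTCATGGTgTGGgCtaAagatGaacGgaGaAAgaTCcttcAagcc
SOX6: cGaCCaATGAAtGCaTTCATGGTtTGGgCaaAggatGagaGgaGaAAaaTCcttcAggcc
SOX13: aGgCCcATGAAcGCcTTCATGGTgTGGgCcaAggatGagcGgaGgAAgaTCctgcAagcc
SOX9: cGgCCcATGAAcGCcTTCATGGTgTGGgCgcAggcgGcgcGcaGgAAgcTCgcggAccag
Over 204 bases of the box, SOX4 and SOX12 shared 85.3% of positions. SOX5 and SOX13 shared 83.8%, SOX5 and SOX6 81.9%, and SOX6 and SOX13 79.9%. Pairs from different groups shared between 57.4% (SOX6 and SOX9) and 75% (SOX4 and SOX9). Even SOX4 and SOX12, the closest pair, differed at the other positions. A read could match more than 1 member in full only within a run of shared bases. How the counting treated such reads is not given in the sources used here.

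The bases upstream of SOX5 and SOX6 are shown because these SOXD genes carried the falls described below. Each is the 250 bases before a start listed by RefSeq (GRCh38.p14), read 5′ to 3′ on the gene's own strand, and capitals mark the motif AACAAT or its reverse complement ATTGTT. For SOX5, 1 start is listed, and its sequence lies on the minus strand at chr12:24562492-24562741, where 159 of the 250 bases fall inside the annotated span of the gene. For SOX6, 5 starts are listed. The sequence before the outermost, start 1, lies on the minus strand at chr11:16738478-16738727, outside the span of the gene, and that before the innermost, start 5, at chr11:16356547-16356796, inside it.
SOX5: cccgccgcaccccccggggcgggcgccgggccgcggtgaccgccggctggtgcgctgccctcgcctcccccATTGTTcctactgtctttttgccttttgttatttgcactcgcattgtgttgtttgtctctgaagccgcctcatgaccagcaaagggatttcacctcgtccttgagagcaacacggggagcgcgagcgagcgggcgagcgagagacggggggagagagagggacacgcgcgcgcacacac
SOX6 start 1: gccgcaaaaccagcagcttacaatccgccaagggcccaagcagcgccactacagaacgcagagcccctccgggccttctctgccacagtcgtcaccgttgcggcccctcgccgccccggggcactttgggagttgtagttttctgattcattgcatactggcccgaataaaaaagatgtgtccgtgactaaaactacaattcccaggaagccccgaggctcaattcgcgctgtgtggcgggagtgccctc
SOX6 start 5: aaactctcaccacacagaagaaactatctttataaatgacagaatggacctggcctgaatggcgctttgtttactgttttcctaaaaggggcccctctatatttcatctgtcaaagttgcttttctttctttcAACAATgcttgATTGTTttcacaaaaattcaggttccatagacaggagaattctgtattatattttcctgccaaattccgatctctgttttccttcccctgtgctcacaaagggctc
SOX5 held 1 match and start 1 of SOX6 held none. Start 5 of SOX6 held 2 matches that lie close together on opposite strands, and of the other 3 starts of SOX6, 2 held 1 match each. The sequences listed for SOX4, SOX12 and SOX13 held none. A match on either strand was present in 8.98% of the 35116 upstream sequences of the same length, which belong to 27305 genes. The SOX5 sequence held 27 CpG sites and start 1 of SOX6 held 17, against a median of 11 over all of them. Starts 2, 3, 4 and 5 of SOX6 held 1, 0, 0 and 2. Those inner starts had 27.2% to 40.8% G and C, against a median of 58%, and the share of 8.98% is not matched for base content. Matches to this motif describe the letters only.

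Library totals ranged from 19963594 to 30348538 counts, and a limit of 3 counts per library corresponded to 0.0953 to 0.162 CPM (counts scaled by the TMM effective library size). SLC48A1 fell from a mean of 73.7 CPM in untreated WT to 5.94 in untreated KO, and from 67.8 to 8.03 in treated cells, with no overlap. In a principal component analysis of log2 CPM, the first component (53.1% of the variance) separated KO from WT. The second component (20.9%) placed replicates 2 and 3 of both treated groups between -84.8 and -74.3, while replicate 1 lay at 40.9 in treated WT, within the untreated range of 15.4 to 75.6, and at 4.21 in treated KO. Values without the libraries numbered 1 are therefore given beside the results they change. The erythroid markers GATA1 and TAL1 were present in every group, with means of 177 to 391 and 120 to 134 CPM, and all 9 K562 markers had counts. Lymphoid markers summed to between 4.07 and 24.3 CPM, with MS4A1 at 0 counts throughout. Fibroblast markers summed to 2.19 to 5.04 CPM in untreated and 43.9 to 154 CPM in treated libraries, nearly all of it COL1A1, while LUM had 0 counts. Epithelial markers summed to between 19.4 and 74.2 CPM, with KRT5 at 0. Their part in the results was not tested.

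Of the 6 genes, SOX12 was the most abundant per kilobase of exon in all 4 groups, and SOX9 had 0 counts in all 12 libraries. In untreated WT the mean levels were 11.01 CPM per kb for SOX12, 1.72 for SOX5, 0.562 for SOX4, 0.297 for SOX6 and 0.0869 for SOX13. Neighbours in that order did not overlap between libraries. The place of SOX4 above SOX6 depends on the division by annotated exon length, 5.85 kb for SOX4 and 19.6 kb for SOX6. In CPM without that division, untreated WT libraries held 5.75 to 5.95 for SOX6 and 2.82 to 4.17 for SOX4. In treated WT, SOX12 remained highest at 10.4 CPM per kb, and the other 4 lay between 0.192 and 0.485 with overlapping libraries. In untreated KO the order was SOX12 at 19.0, SOX4 at 5.23, SOX5 at 2.29, SOX13 at 0.147 and SOX6 at 0.0152 CPM per kb. In treated KO it was SOX12 at 17.2, SOX4 at 4.37, SOX5 at 0.688, SOX13 at 0.520 and SOX6 at 0.00818, where SOX5 and SOX13 overlapped. Bulk RNA cannot tell apart fewer cells expressing a gene and less of its RNA per cell.

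**Figure D1:**
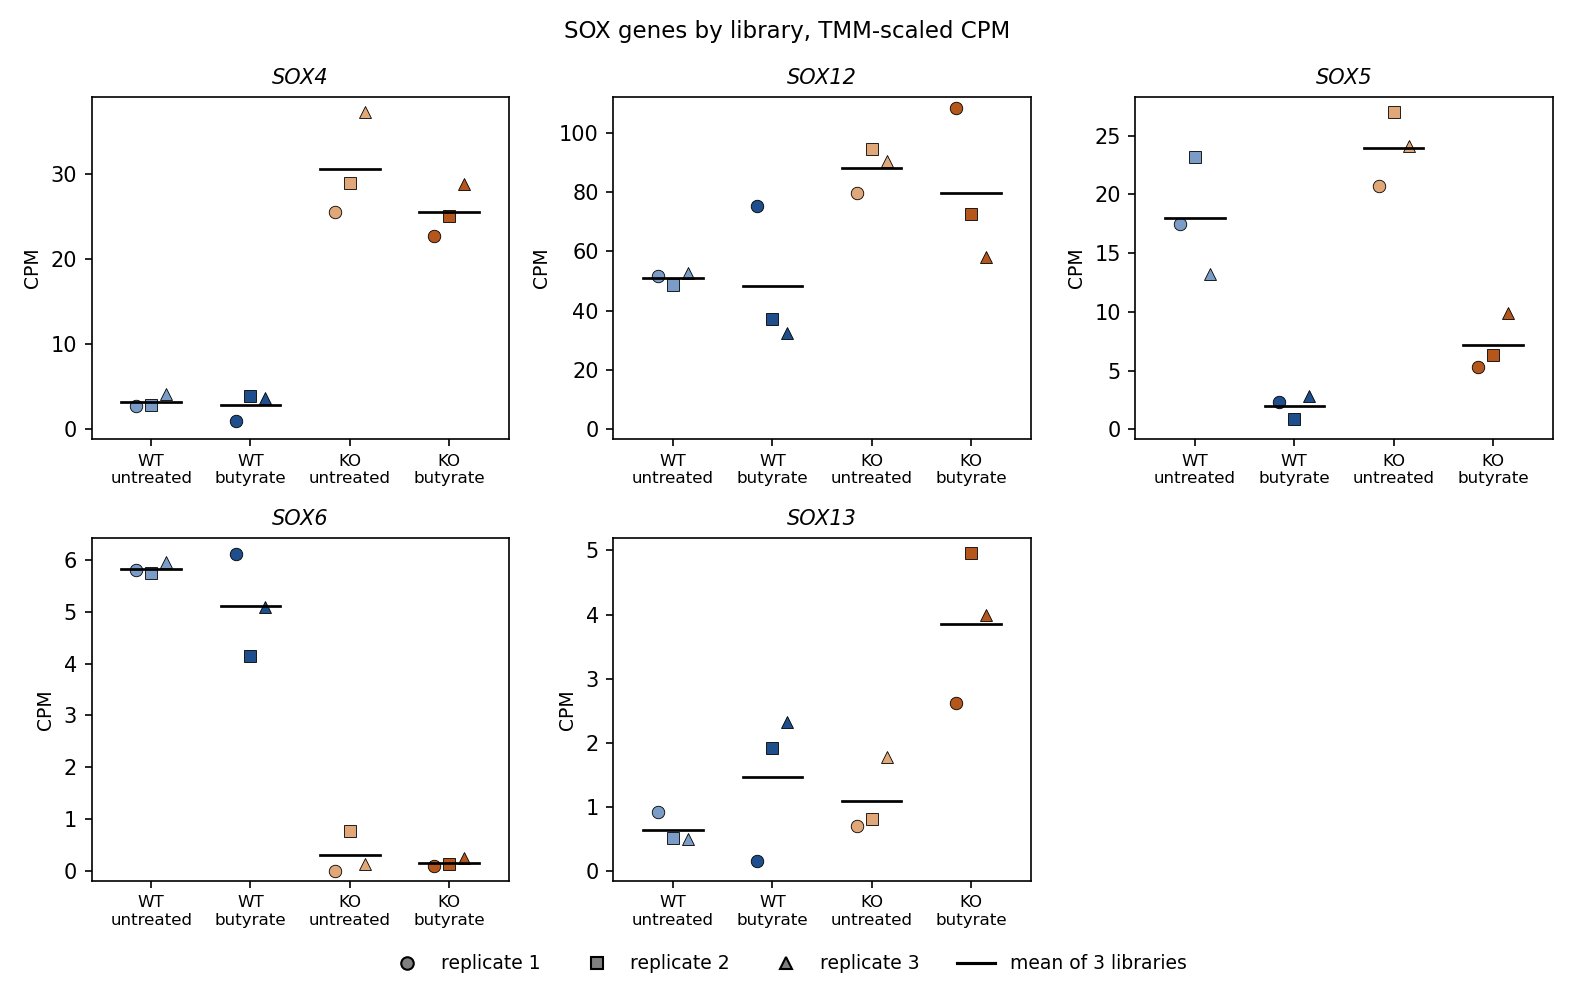
Level of each SOX gene in TMM-scaled CPM (vertical axes, linear, a separate scale per gene) for the 4 groups, 1 point per library with the replicate number as its shape and a line at the mean of 3 libraries. SOX4 is high in the 6 KO libraries, SOX6 is high in the 6 WT libraries, and SOX5 is low in treated libraries of both genotypes.

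SOX4, an activator of the SOXC group known in lymphoid progenitors and in leukaemia, was about 9-fold higher in KO than in WT with and without butyrate. It lies on the plus strand at chr6:21593751-21598619. In untreated WT it measured 2.82, 2.88 and 4.17 CPM in replicates 1, 2 and 3, and in untreated KO 25.5, 29.01 and 37.3 CPM. In treated WT it measured 0.985, 3.88 and 3.65 CPM, and in treated KO 22.8, 25.1 and 28.8 CPM. Every KO library lay above every WT library, and the lowest KO value was over 5 times the highest WT value. The ratio of means was 9.32 in untreated cells (log2 change 3.21, SE 0.43, edgeR adjusted p 0.00019) and 8.999 in treated cells (3.16, SE 0.43, adjusted p 0.000288). Among all tested genes, 11.7% were called higher in KO in untreated cells and 10.1% in treated cells, and 22.2% and 17.9% were higher with no overlap. Both calls held in all 6 fits that left out 1 library, with log2 changes of 3.02 to 3.41 and of 2.75 to 3.44. These 2 genotype comparisons use separate libraries but share 1 fit, and same-numbered libraries deviated together, so they are not independent repeats.

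Butyrate left SOX4 with overlapping libraries in both genotypes. The log2 change was -0.20 (SE 0.40) in WT and -0.26 (SE 0.39) in KO, where the 95% confidence interval ran from -1.10 to 0.58 (edgeR adjusted p 0.763). The WT value is a description with no test for all 6 genes, because that comparison entered into the choice of genes. Replicate 1 of treated WT, the library that grouped with untreated cells, held the lowest SOX4 value of all 12.

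SOX12, the other SOXC gene, is broadly expressed and lies on the plus strand at chr20:325552-330224. It measured 51.7, 48.6 and 52.6 CPM in untreated WT and 79.6, 94.4 and 90.5 CPM in untreated KO, groups that did not overlap. In treated WT it measured 75.4, 37.2 and 32.4 CPM, and in treated KO 108, 72.5 and 58.2 CPM, where replicate 1 was the highest of each group and the groups overlapped. KO exceeded WT by 0.79 on the log2 scale in untreated cells (SE 0.30, edgeR adjusted p 0.0813) and by 0.72 in treated cells (SE 0.30, adjusted p 0.121), and neither passed the threshold of 0.05. With the replicate number as a block both passed, at 0.80 (adjusted p 0.0269) and 0.75 (adjusted p 0.0407). Without the libraries numbered 1 they were 0.85 (adjusted p 0.00864) and 0.89 (adjusted p 0.00814). Without replicate 1 of treated WT alone, the treated difference was 1.19 (adjusted p 0.00564), and without replicate 1 of treated KO it was 0.44 (adjusted p 0.383). The call on SOX12 thus changed with the fit and with the libraries numbered 1.

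Under butyrate SOX12 had a log2 change of -0.08 (SE 0.30) in WT and -0.15 (SE 0.30) in KO, with an interval of -0.80 to 0.51 in KO (edgeR adjusted p 0.838). In both genotypes replicate 1 of the treated group lay above every untreated library and replicates 2 and 3 lay below the untreated group's mean. Without the libraries numbered 1 the WT value was -0.56.

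SOX5, a SOXD factor known from cartilage and neuronal development, was lower in treated than in untreated libraries of both genotypes. The gene spans chr12:23529504-24562650 on the minus strand, over a megabase. In WT it measured 17.4, 23.2 and 13.2 CPM untreated and 2.33, 0.854 and 2.83 CPM treated. The treated mean was 0.112 of the untreated mean (log2 change -3.15, SE 0.43), which is given as a description because this fall led to the choice of the gene. In that comparison 0.550% of all tested genes were called lower and 10.4% were lower with no overlap, and nothing is read from these shares for SOX5. The change was -3.29 without the libraries numbered 1, and replicate 1 of treated WT lay with its replicates here.

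The KO libraries did not enter that choice. In KO, SOX5 measured 20.7, 27.0 and 24.1 CPM untreated and 5.28, 6.38 and 9.89 CPM treated. No treated library reached the lowest untreated library. SOX5 fell by 1.73 on the log2 scale (SE 0.40, 95% confidence interval -2.61 to -0.86, edgeR adjusted p 0.037), to 0.300 of the untreated mean. Of all tested genes, 0.595% were called lower by butyrate in KO, and 11.8% were lower with no overlap. The call was lost in each of the 6 fits that left out 1 library, with log2 changes of -2.02 to -1.56 and adjusted p of 0.0534 to 0.16, and with scaling by library size alone (adjusted p 0.0563). It held with the replicate block (adjusted p 0.014), without the libraries numbered 1 (adjusted p 0.0398) and with DESeq2 (adjusted p 0.000791).

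Between genotypes SOX5 is described without a test, since the WT libraries that chose it enter the difference. Untreated KO overlapped untreated WT (log2 change 0.42, SE 0.39). In treated cells all 3 KO libraries lay above all 3 WT libraries, with a ratio of means of 3.58 (log2 change 1.84, SE 0.41). The change under butyrate was 1.42 less negative in KO than in WT (SE 0.56), also a description.

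SOX6, the SOXD factor that binds and silences HBE1, was present in WT and close to the limit of detection in KO. It spans chr11:15966449-16738477 on the minus strand. Untreated WT libraries measured 5.795, 5.75 and 5.95 CPM (107, 124 and 177 counts), and treated WT libraries 6.12, 4.14 and 5.09 CPM. Untreated KO libraries measured 0, 0.761 and 0.134 CPM (0, 16 and 4 counts), and treated KO libraries 0.0919, 0.132 and 0.258 CPM (2, 4 and 8 counts). No KO library reached 1 CPM, and the lowest WT library was over 5 times the highest KO library. SOX6 was 19.6-fold lower by the ratio of means in untreated KO (log2 change -4.28, SE 0.86, edgeR adjusted p 0.00328) and 31.8-fold lower in treated KO (-4.92, SE 0.89, adjusted p 0.00215). Among all tested genes, 10.9% were called lower in untreated KO and 8.89% in treated KO, and 20.2% and 16.0% were lower with no overlap. Both calls held in all 6 fits that left out 1 library, the untreated change running from -6.18 to -3.73. SOX6 passed the filter on low counts through its WT libraries alone, so its being among the tested genes already required a difference of this kind.

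Butyrate did not separate the SOX6 libraries of either genotype. In WT the log2 change was -0.19 (SE 0.72). In KO it was -0.83 (SE 0.88, interval -2.74 to 1.08, edgeR adjusted p 0.651) and became 1.04 without replicate 2 of untreated KO, which held 16 of the 20 untreated KO counts. At these counts a change of SOX6 within KO was not detectable.

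SOX13, a SOXD factor known from gamma-delta T cells, was the lowest of the 5 detected genes in untreated WT. It lies on the plus strand at chr1:204073115-204127743. It measured 0.921, 0.510 and 0.504 CPM in untreated WT (17, 11 and 15 counts) and 0.156, 1.92 and 2.32 CPM in treated WT (3, 45 and 73 counts). Replicates 2 and 3 of treated WT lay above the untreated group and replicate 1 below it, for a log2 change of 1.20 (SE 0.77) that was 2.04 without the libraries numbered 1. In KO it measured 0.696, 0.809 and 1.77 CPM untreated and 2.62, 4.96 and 3.996 CPM treated, groups that did not overlap. The KO change under butyrate was 1.81 (SE 0.76, edgeR adjusted p 0.208), with a ratio of means of 3.53. It missed the threshold, and 12.6% of all tested genes were higher without overlap in this comparison. With the replicate block and without the libraries numbered 1, a fit chosen after seeing the data, its adjusted p was 0.0412. KO exceeded WT by 0.78 in untreated cells (SE 0.77, adjusted p 0.523) and by 1.38 in treated cells (SE 0.75, adjusted p 0.231).

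SOX9, the SOXE partner of SOX5 and SOX6 in cartilage, spans chr17:72121020-72126416 and was not tested. With 0 counts in every library, each library allows up to 3 counts, or at most 0.162 CPM.

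**Figure D2:**
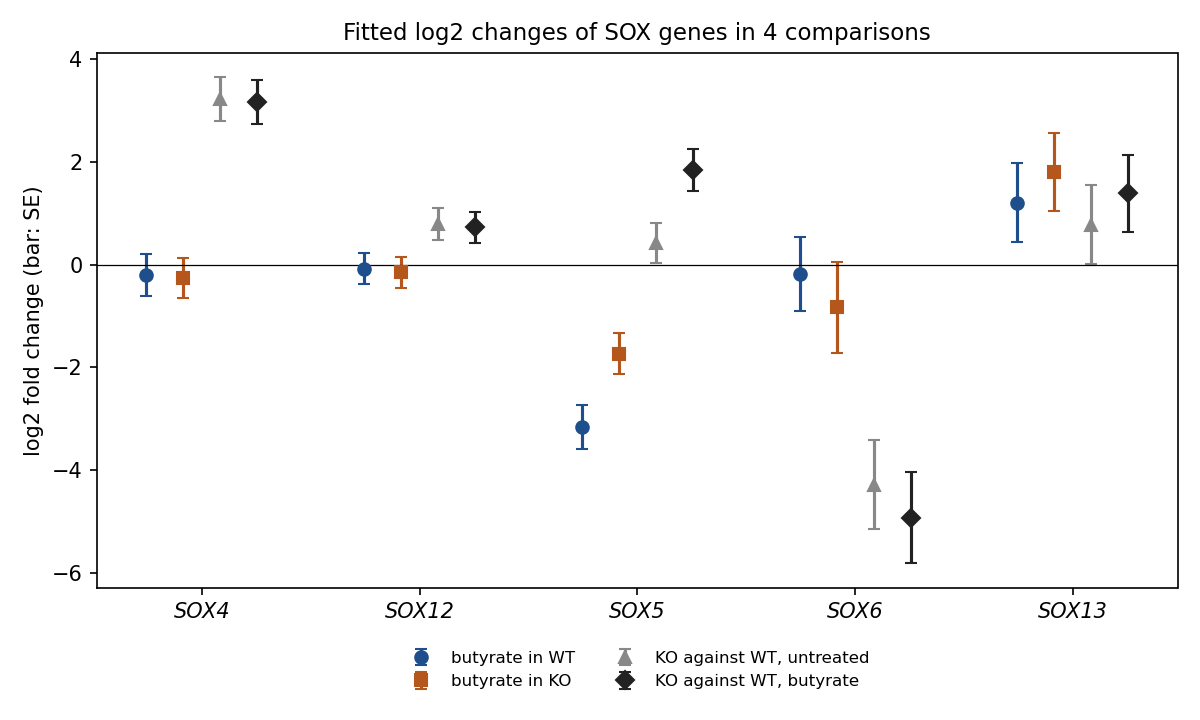
Fitted log2 fold changes (vertical axis) of the 5 detected SOX genes in 4 comparisons, each shown by a symbol, with bars of 1 SE. The genotype differences of SOX4 (3.21 and 3.16) and SOX6 (-4.28 and -4.92) and the butyrate changes of SOX5 (-3.15 and -1.73) lie farthest from 0, and the comparisons share libraries.

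In all, SOX5 alone was called by butyrate in KO, where 3.40% of all tested genes were called. Apart from SOX5, which was not tested there, SOX4 and SOX6 (which passed the filter through WT alone) were called between genotypes and SOX12 and SOX13 were not, both without butyrate (22.6% of all genes called) and with it (19.0%). No difference in the butyrate response between genotypes was called for SOX4, SOX6, SOX12 or SOX13. Their interactions were -0.06 (SE 0.56), -0.64 (SE 1.12), -0.07 (SE 0.43) and 0.61 (SE 1.07) on the log2 scale, each with an edgeR adjusted p of 1. None of the 4 had an unadjusted p under 0.05, and DESeq2 called none. Over all genes edgeR called 0 interactions, and 4.16% had an unadjusted p under 0.05.

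Genes reported as SOX targets were taken as a list of 19, of which 12 passed the filter on low counts and 2 had 0 counts throughout. The list joins genes of SOX6 (HBE1, the cyclin gene CCND1 and the cytokine signalling inhibitor SOCS3), of SOX4 and its group (among them the tubulin gene TUBB3) and of SOX9 with SOX5 and SOX6 in cartilage (collagens and other matrix genes). In untreated cells 3 were called higher in KO, 3 lower and 6 not, where 11.7% and 10.9% of all tested genes were called higher and lower, and the median log2 change of the tested targets was -0.34 against 0.02 over all genes. In treated cells 4 were called higher, 3 lower and 5 not, where 10.1% and 8.89% of all genes were, with a median of 0.50 against -0.0022. Both medians include COL2A1, which passed the filter through KO alone, so they are an account of the list and not support. Of the SOX6 targets, HBE1 and CCND1 were called lower in KO in both comparisons and SOCS3 was not called.

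HBE1, the embryonic globin gene that SOX6 silences, was low where SOX6 was low, and the part of SOX6 in its level was not tested. It measured 5649, 2273 and 5121 CPM in untreated WT and 26.3, 17.9 and 7.36 CPM in untreated KO. In treated cells it measured 23164, 13909 and 10304 CPM in WT and 419, 222 and 92.0 CPM in KO. The untreated KO mean was 253-fold lower than in WT (log2 change -7.99, SE 0.77, edgeR adjusted p 1.65e-05), and in treated cells the change was -6.02 (SE 0.70, adjusted p 9.88e-05). The 9 summed K562 markers, of which HBE1 is one, ran from 8079 to 63612 CPM in WT and from 3702 to 7045 CPM in KO, and their part in this difference was not tested. CCND1, which drives entry into the cell cycle, was also lower in KO. It ranged from 29.8 to 46.6 CPM in untreated WT and measured 0.589, 0.143 and 0.903 CPM in untreated KO, and it fell by 6.07 on the log2 scale (SE 0.88, adjusted p 0.000348). In treated cells it was lower by -2.47 (SE 0.71, adjusted p 0.0275), a call that held in 3 of the 6 fits leaving out 1 library (highest adjusted p 0.0801, without replicate 3 of treated KO). TUBB3, the neuronal tubulin, differed by -2.26 (adjusted p 0.00194) in untreated and by -1.53 (adjusted p 0.0185) in treated cells, the latter in 4 of 6 fits (highest adjusted p 0.0708, without replicate 2 of treated WT).

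Of the collagen genes in the list, 3 were called higher in untreated KO and 4 in treated KO. COL2A1, the main cartilage collagen, had 0 counts in all 6 WT libraries. It measured 261, 303 and 331 CPM in untreated KO and 243, 212 and 253 CPM in treated KO. Against a limit of 3 counts per WT library it was at least 2221-fold higher in untreated KO (edgeR adjusted p 3.57e-07) and at least 1868-fold higher in treated KO (adjusted p 7.54e-07). COL2A1 passed the filter on low counts through its KO libraries alone, so its place in the count of called targets is an account of the list and not support. The 4 cartilage markers summed to 0.696 to 4.61 CPM in WT and 215 to 332 CPM in KO, nearly all of the latter being COL2A1. ACAN and CNMD had at most 3 counts in any library, MATN1 had at most 89, and SOX9 had 0. COL9A2 rose by 2.88 in untreated KO (adjusted p 0.0041) and 2.22 in treated KO (adjusted p 0.016), and COL9A3 by 2.52 (adjusted p 0.0173) and 2.44 (adjusted p 0.0203). The untreated COL9A2 call held in all 6 fits leaving out 1 library and the treated one in 4 (highest adjusted p 0.0618, with replicate 3 of treated KO omitted), and the COL9A3 calls each held in 3 (highest adjusted p 0.0816, with replicate 3 of untreated KO omitted, and 0.0618, with replicate 2 of treated KO omitted). COL11A2 rose by 1.64 in treated KO (adjusted p 0.0471), in 1 of 6 fits leaving out 1 library (highest adjusted p 0.159, without replicate 2 of treated WT), and its adjusted p was 0.069 without the libraries numbered 1.

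COL2A1 (chr12:47972967-48006212) lies 190 kb from SLC48A1 (chr12:47753934-47782751), the gene that was knocked out. The 3 tested genes between them, named after their values were seen, were HDAC7, VDR and TMEM106C, and their log2 changes in untreated KO were -1.58, -4.82 and 0.92 (edgeR adjusted p 0.00157, 0.0242 and 0.00641). In treated KO they were -0.30, -0.58 and 0.78 (adjusted p 0.506, 0.785 and 0.0182). The part of this position in the level of COL2A1 was not tested.

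**Figure D3:**
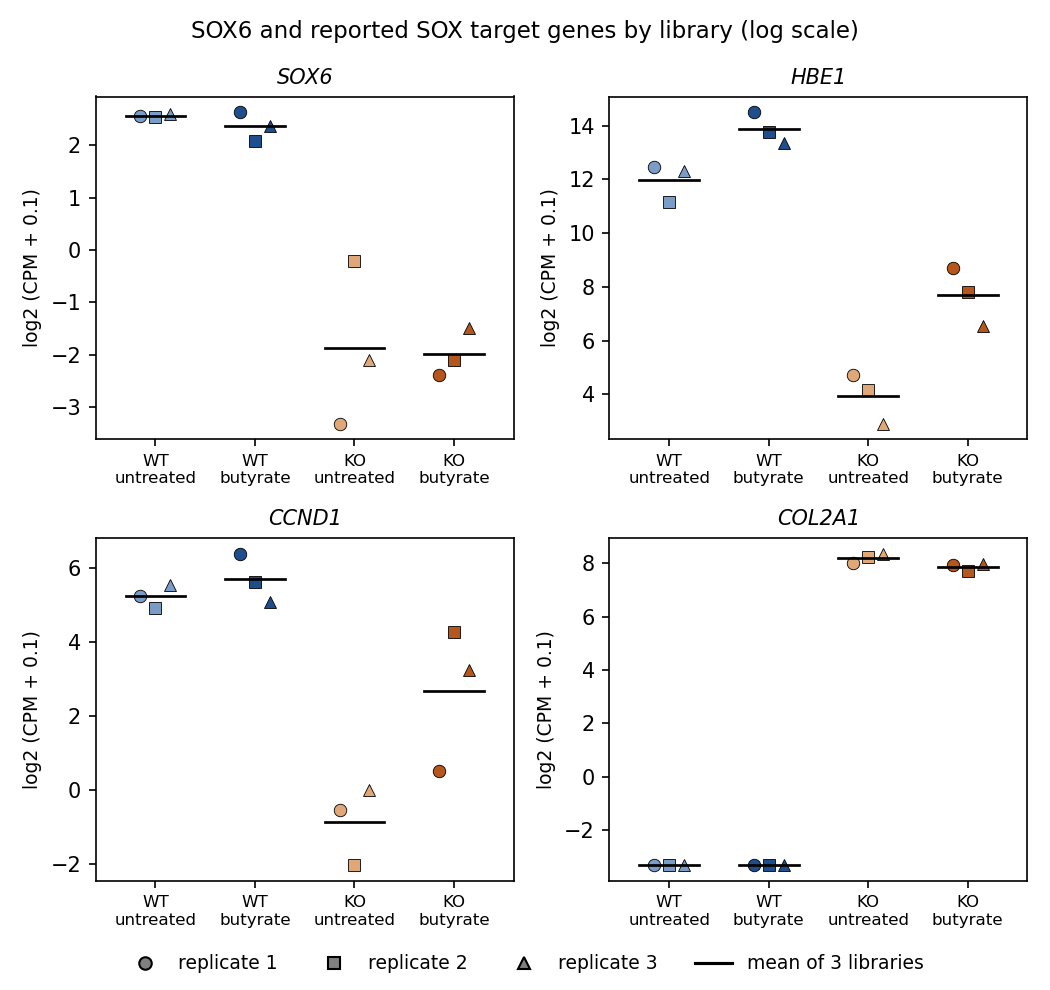
SOX6 and 3 genes reported as SOX targets in each library, as log2 of CPM plus 0.1 (vertical axes, log scale), with 1 point per library and a line at the mean of the 3 log values. SOX6, HBE1 and CCND1 are lower in the KO libraries than in the WT libraries, and COL2A1 has no counts in WT and 212 to 331 CPM in KO.

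Under butyrate in KO, 5 of the 12 tested targets were called higher, none lower and 7 were not called. Their median log2 change was 1.52 against 0 over all genes, and 2.80% of all genes were called higher. CCND1 rose by 4.14 (SE 0.82, edgeR adjusted p 0.0224), to 1.33, 19.2 and 9.35 CPM, where replicate 1 stayed near the untreated libraries. HBE1 rose by 3.83 (SE 0.63, adjusted p 0.00995), a 14.2-fold ratio of means, with SOX6 at or near the limit of detection in both KO groups. The part of SOX6 in this rise was not tested. COL11A2 rose by 2.18 (adjusted p 0.0467) and TUBB3 by 1.91 (adjusted p 0.0289), and the fifth was SOCS3 at 1.21 (adjusted p 0.0262). Without replicate 2 of untreated KO none of the 5 passed, at 0.115 for CCND1, 0.0675 for HBE1, 0.203 for COL11A2, 0.141 for TUBB3 and 0.138 for SOCS3. Of the 6 fits leaving out 1 library, HBE1 passed in 5, CCND1 in 3, SOCS3 in 2, TUBB3 in 1 and COL11A2 in 0. With the replicate block, 8 of the 12 were called higher, and without the libraries numbered 1, 7 of 13. Over all genes both fits also called more than the first fit, where 3.40% were called in either direction. The numbers of all genes called are given in the last section, and nothing is read from the larger target counts. COMP, in both counts, had at most 2 counts in any untreated library and passed the filter on low counts through treated libraries alone. MATN3, in the second, passed through treated KO alone. The place of COMP and MATN3 in these counts is an account of the list and not support. COMP is also among the 12 tested in the first fit, so the median of 1.52 is likewise an account.

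In WT, edgeR called 0 of the 12 targets under butyrate, where 2.35% of all genes were called. COL2A1, 1 of the 12, had 0 counts throughout WT and could not be called there. An unadjusted p under 0.05 was found for 6 of them and for 18.0% of all genes. DESeq2 called 3 higher, the fit with the replicate block called 4 higher and 1 lower, and the fit without the libraries numbered 1 called 3 of 13 higher. These fits also called more genes over all, as counted in the last section, so nothing is read from their target counts. COMP, among those called higher with the block and without the libraries numbered 1, passed the filter through treated libraries alone. The median log2 change was 0.76 against 0.02 over all genes. It includes COMP and counts COL2A1 as 0, so it is an account of the list and not support. HBE1 had a WT change of 1.86 (SE 0.58, edgeR adjusted p 0.117), and the interaction was not called for any target by edgeR (4 of 12 at an unadjusted p under 0.05) or DESeq2.

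Proteins known to bind the SOX members were taken as a list of 11 genes, all tested. In both genotype comparisons 1 was called higher and 1 lower, 2 of 11, where 22.6% of all tested genes were called without butyrate and 19.0% with it. DAZAP2, a small adaptor protein, was lower in KO, by -1.10 without butyrate (edgeR adjusted p 0.00228) and by -0.79 with butyrate (adjusted p 0.018), the latter in 4 of 6 fits leaving out 1 library (highest adjusted p 0.0666, without replicate 2 of treated KO). HDAC1, a histone deacetylase found in SOX6 complexes and a target of butyrate, was higher in KO by 0.62 (adjusted p 0.0352) and 0.64 (adjusted p 0.037). The 2 HDAC1 calls held in 2 and 1 of the 6 fits leaving out 1 library (highest adjusted p 0.156, with replicate 1 of untreated KO omitted, and 0.124, with replicate 2 of treated WT omitted), and neither held without the libraries numbered 1 (adjusted p 0.0722 and 0.0772). With the replicate block 2 partners were called higher and 1 lower in each comparison, the added one being CTNNB1, the gene of beta-catenin. Without the libraries numbered 1, CTNNB1, EP300 and DAZAP2 were called in untreated KO and CTNNB1 and DAZAP2 in treated KO. The share of all genes called by these other fits is not set beside them, so nothing is read from these counts. Butyrate gave 0 calls among the 11 with edgeR and with DESeq2 in both genotypes, where edgeR called 2.35% of all genes in WT and 3.40% in KO. The unadjusted p was under 0.05 for 0 in WT and 1 in KO, against 18.0% of all genes in WT and 19.8% in KO.

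Genes that act with SOX6 in globin silencing were a list of 11, of which 10 were tested and BCL11A was too low. In untreated cells edgeR called 0 of them between genotypes (3 at an unadjusted p under 0.05, as had 34.6% of all genes), while DESeq2 and the fit with the replicate block each called 1 lower. In treated cells ZBTB7A, a repressor of fetal globin, was lower in KO by -0.89 (edgeR adjusted p 0.0278). It was not called without the libraries numbered 1 (adjusted p 0.0533) or without replicate 3 of treated KO (adjusted p 0.0983), and it held in 2 of the 6 fits leaving out 1 library. With the replicate block GATA1 was called lower as well. Butyrate gave 0 calls with edgeR in either genotype (0 at an unadjusted p under 0.05) and 0 with DESeq2. Of all tested genes, edgeR called 2.35% in WT and 3.40% in KO, and 18.0% and 19.8% had an unadjusted p under 0.05. Without the libraries numbered 1, edgeR called MBD3, a subunit of the NuRD repressor complex, lower under butyrate in both genotypes and higher in treated KO than in treated WT, and ZBTB7A lower in untreated KO. Calls by these other fits are given without the share of all genes they called, and nothing is read from their number.

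Beyond the 6 genes, 13 other SOX genes were in the table. SOX3, SOX11, SOX14 and SOX17 had 0 counts in all libraries, SOX2 had 2 counts in a single library, and SOX10 and SOX30 were below the filter. The 6 tested were SOX1, SOX7, SOX8, SOX15, SOX18 and SOX21. SOX1, a factor of neural progenitors, had 0 counts in all 6 WT libraries. It measured 28.4, 47.8 and 41.6 CPM in untreated KO and 30.5, 34.3 and 23.1 CPM in treated KO, so all KO libraries were high. Against the limit of 3 counts per library it was at least 292-fold higher in untreated KO (edgeR adjusted p 3.58e-06) and at least 232-fold higher in treated KO (adjusted p 5.87e-06). SOX1 passed the filter on low counts through its KO libraries alone, so a difference of this kind was needed for it to be tested. It lies at chr13:112067149-112071706.

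SOX21, a related neural factor on the same chromosome (chr13:94709622-94712545), had 0, 5 and 0 counts in untreated WT and 0, 3 and 0 in treated WT. It had 28, 12 and 20 counts in untreated KO and 23, 55 and 43 in treated KO. It too passed the filter through KO alone. It was called higher in treated KO (edgeR adjusted p 0.0215, up to 0.0814 without replicate 3 of treated WT) and not in untreated KO (adjusted p 0.0628). Its neighbour on the other strand, SOX21-AS1, was also called in treated KO (adjusted p 0.0359, and 0.0667 without the libraries numbered 1, holding in 1 of 6 fits leaving out 1 library), and without a known strand setting their reads cannot be told apart. SOX21-AS1, with at most 5 counts in any WT library, likewise passed the filter through KO alone. In the fit to all 12 libraries, SOX7, SOX8, SOX15 and SOX18 were not called by edgeR in any comparison, and the fit with the replicate block called 2 of the 6 tested genes in untreated KO, SOX1 and SOX21, where edgeR without it called SOX1 alone. Without the libraries numbered 1, 8 of the 13 passed the filter and 4 were called higher in treated KO, SOX1, SOX18, SOX21 and SOX30. SOX30 had at most 2 counts in any WT library and, like SOX1 and SOX21, passed this filter through KO alone. The count is thus an account of the list and not support. In the fit to all 12 libraries, 10.1% of all tested genes were called higher in treated KO. Butyrate gave 0 calls among the 6 with edgeR (0 at an unadjusted p under 0.05) and DESeq2 in both genotypes. SOX1, with 0 counts throughout WT, could not be called in WT.

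**Figure D4:**
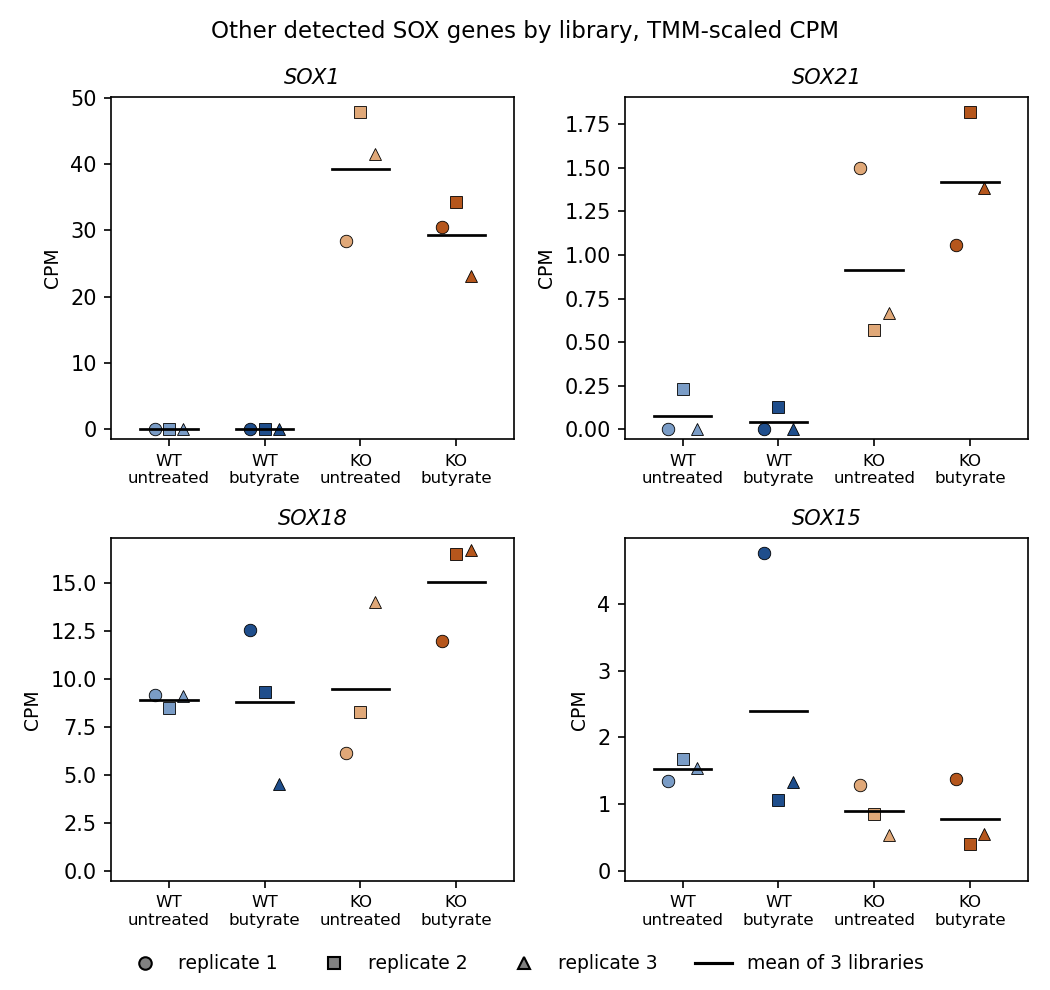
Levels of 4 other detected SOX genes in TMM-scaled CPM (vertical axes, linear, a separate scale per gene), with 1 point per library and a line at the mean of 3. SOX1 is at 0 in the 6 WT libraries and at 23.1 to 47.8 CPM in the 6 KO libraries, and SOX18 overlaps between genotypes in both untreated and treated cells.

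Each SOX gene was set beside its nearest tested genes, 10 on each side where the chromosome allowed, with positions for 15172 of the 15805 tested genes. Around SOX4, the 20 neighbours over 8.52 Mb had a median log2 change of 0.44 in untreated KO, 14 were positive, 6 were called higher and 2 lower, and 2 were higher than SOX4, while the lowest neighbour changed by -8.71. Of all tested genes, 11.7% were called higher and 10.9% lower in this comparison. Around SOX6, the 20 neighbours over 4.71 Mb had a median of -0.26, 2 were called higher and 3 lower, and none was as low as SOX6. In treated cells the medians were 0.54 around SOX4 and -0.41 around SOX6, and again 2 neighbours were higher than SOX4, the lowest changing by -6.46, and none was as low as SOX6. The neighbours of SOX5 had a median of -0.27 under butyrate in WT and -0.36 in KO, and none of the 20 was as low as SOX5 in either. Around SOX12 only 13 neighbours could be taken, near the end of chromosome 20. Their untreated median was -0.01, 3 were called higher and 1 lower, and 3 were as high as SOX12. In treated cells the median was 0.43, 10 were positive, 3 were called higher and 0 lower, and 3 were as high as SOX12.

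On chromosome 13 the medians of the neighbours were above 0 in untreated KO. The 20 neighbours of SOX21, over 18.5 Mb, had a median of 1.07 in untreated cells with 12 called higher and 1 lower, and those of SOX1 had a median of 0.64 with 7 higher and 4 lower, against 11.7% higher and 10.9% lower over all tested genes. None of the neighbours of SOX1 was as high as SOX1.

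**Figure D5:**
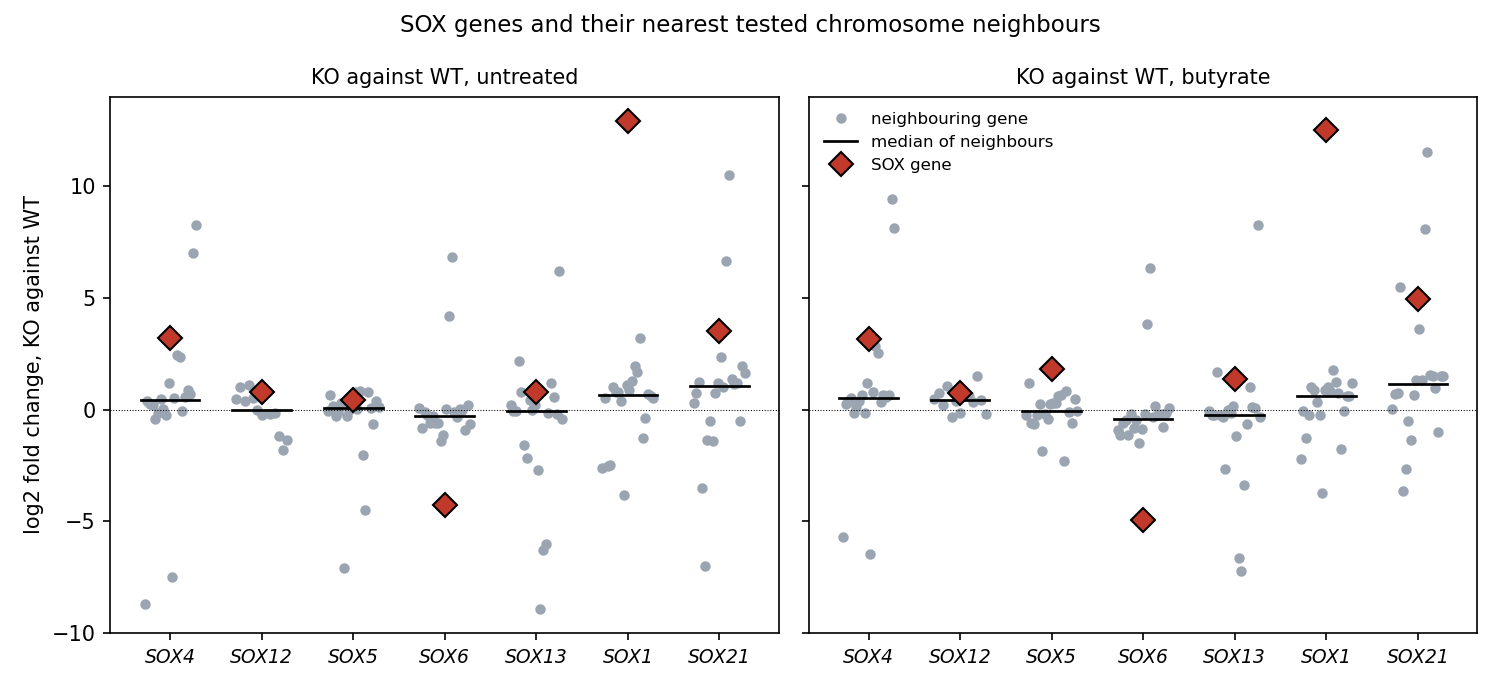
Log2 fold changes of KO against WT (vertical axis) for 7 SOX genes (diamonds) and their nearest tested neighbours on the chromosome (points, with a line at the median), untreated on the left and treated on the right. SOX6 and SOX1 lie outside the range of their neighbours in both panels, and SOX12 lies within it.

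The genes whose log2 CPM followed each SOX gene most closely over the 12 libraries were picked by Pearson's r among tested genes with a mean of at least 1 CPM. All 12 libraries share the split by genotype, so these values are descriptions. For SOX4 they were KCNG3 (0.990), FOXC1 (0.989) and PKHD1L1 (0.989), and for SOX12 they were PATZ1 (0.990), FOXL2 (0.985) and MAPK1IP1L (0.981). For SOX6 they included SLC48A1 (0.981), the gene that was knocked out, and CAST (0.969). For SOX5 they were C22orf39 (0.955), KCTD15 (0.945) and TDP1 (0.942), and for SOX13 they were RRBP1 (0.964), SLC4A11 (0.952) and SEZ6L2 (0.946).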

How the data were processed

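Total RNA of 12 K562 libraries was sequenced, and the authors deposited whole-number counts per gene symbol in a single table. Per the submitters' processing notes, FastQC 0.12.1, STAR 2.7.11b and the build hg38 were used. The counter, annotation, strand setting and filters are not given in the sources used here, so overlapping, antisense and near-identical genes can share reads. Columns were matched to samples by library name, and 0 were left unused.

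Counts were analysed in R 4.3.3 with edgeR 4.0.16. filterByExpr (minimum count 10) kept 15805 genes, and 5 of the 6 SOX genes passed. TMM scaling and a quasi-likelihood model with 1 mean per group were fitted to all 12 libraries (biological coefficient of variation 0.384), with Benjamini-Hochberg adjustment over all tested genes and a threshold of 0.05. SE is the log2 change divided by the square root of F. Log2 CPM used a prior count of 2. Replicates of a group were separate libraries, since the lowest chi-square per degree of freedom between them was 37.2. Confidence intervals of log2 changes come from the fit and include the spread between libraries, while the 3-count limit covers counting error only. The steps were tested on simulated data.

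Members and lists were chosen with earlier results of these data known. Genes named are the members, at most the 4 largest called genes per list and comparison, SLC48A1, HBE1, GATA1, TAL1 and the 3 genes most like each member, and others are named where they complete a count of 5 or fewer. Some results for single genes are withheld and not reported here.

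Same-numbered libraries deviated together from their group means (r of 0.195 to 0.409 in the WT butyrate comparison, 0.147 to 0.468 in KO, 0.210 to 0.361 between untreated genotypes and 0.315 to 0.595 between treated ones), so the replicate number pairs them in these data, and a fit with it as a block was run. Other alternatives were RLE size factors, library size alone, no filter, only the groups compared, DESeq2 1.42.0, leaving out each library and leaving out the libraries numbered 1.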

Additional observations from a re-analysis of the deposited data

How the results depend on the processing

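The counts of genes called moved most. Under butyrate in WT, 372 genes were called, against 1361 with the replicate block, 63 with only the groups compared, 1884 without the libraries numbered 1, 2412 with both the block and that omission (a fit chosen after seeing the data) and 1331 with DESeq2. Leaving out 1 library gave 43 to 1243. Under butyrate in KO, 537 became 1852, 2164, 2722 and 1538 with the block, without the libraries numbered 1, with both, and with DESeq2 (48 to 833 leaving out 1 library). KO against WT gave 3009 in treated cells, against 4612 with the block, 1802 with only the groups compared and 4520 with the block and without the libraries numbered 1. In untreated cells 3574 were called, and 2485 to 2844 leaving out 1 library. Interactions numbered 0, against 2 with no filter, 3 with the block, 9 without the libraries numbered 1, 26 with both and 81 with DESeq2 (0 to 2 leaving out 1 library). Fewer samples enter the fits that omit libraries. For the other differences the cause was not tested.

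SOX5 under butyrate in KO changed by -1.61 with library size alone, where 0 SOX members were called, and by -2.02 to -1.56 leaving out 1 library (0 members called). With the block and without the libraries numbered 1, 2 members were called, SOX13 at 1.81 being the second. SOX12 in untreated KO passed at 0.77 with library size alone, 0.80 with the replicate block, 0.78 with only the groups compared, and 0.85 without the libraries numbered 1, with or without the block. In treated KO it passed at 0.86 with library size alone, 0.75 with the block, 0.89 without the libraries numbered 1 and 0.89 with both, and ran from 0.44 to 1.19 leaving out 1 library. Leaving out 1 library, 2 to 3 of the members tested between treated genotypes were called. The replicate block changed no other call among the members.

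Changes that did not pass a test also turned sign: SOX6 under butyrate in KO (-1.38 to 1.04 leaving out 1 library), SOX12 there (-0.44 to 0.048), and the interactions of SOX4 (0.025 with the replicate block, -0.44 to 0.22 leaving out 1 library), SOX6 (-1.19 to 1.24), SOX12 (0.091 with library size alone, 0.039 without the libraries numbered 1, 0.040 with the block as well, -0.35 to 0.42) and SOX13 (-0.29 without the libraries numbered 1, -0.23 with the block as well). The cause was not tested. SOX6 in KO, at 0 to 16 counts, is limited by depth.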
